A study of Homo sapiens with 17 samples.

Results

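The 9 genes described here encode complement components and complement regulators. They were taken from the 26457 RefSeq genes of the deposited mRNA-seq table by their symbols, namely C3, CFB, C1R, C1S, CFI, SERPING1, CD46, CD55 and CD59. The cells were SW480, a line from a human colon adenocarcinoma whose p53 is the mutant R273H (mutp53). Control cells stably carried an inducible short hairpin RNA against LacZ (shLacZ), and mutp53-depleted cells one against p53 (shp53). Both lines were kept in 1.5 μg/ml puromycin, and both received 1 μg/ml doxycycline, which switches the hairpin on. Each line was harvested without TNF-α (0 h) or following 16 h with 12.5 ng/ml TNF-α, which gave 4 groups with 2 biological replicates, A and B, in each. The 2 hairpins sit in 2 separately made lines, so an effect of the hairpin and any other difference between the lines cannot be told apart. In bulk RNA, fewer cells that express a gene and less RNA per cell cannot be told apart either.

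Complement is a protein cascade that marks and lyses foreign or damaged cells. Its classical branch starts with the proteases C1r and C1s, its alternative branch is amplified by factor B, and all branches meet at the cleavage of C3. Healthy and malignant cells protect themselves with membrane proteins, among them CD46, CD55 and CD59, and soluble inhibitors such as C1 inhibitor and factor I act in plasma. The liver makes most circulating complement, and epithelial cells of the gut can also make C3 and factor B, for which inflammatory cytokines are known inducers.

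Values are normalized reads, which are the reads on the exons of a gene scaled by a single factor for each library to a common total. The libraries held 6108488 to 13809578 reads on genes, and 1 read equalled between 0.6701 and 1.515 normalized reads. A gene was tested where its mean over the 8 libraries was at least 2.5 normalized reads, which 14800 genes and 7 of the 9 complement genes met. Differences are log2 fold changes of normalized reads + 1 with their standard error (SE) from limma, fitted over all genes tested. Rose and fell mean a Benjamini-Hochberg adjusted p under 0.05 over all those genes, and called means a fold change of at least 2 besides. Of 9 markers of colon epithelium and SW480 cells, 7 passed the filter on low values, with CDX1 at 0 in every library. None of 7 hepatocyte markers passed it, with FGB and TTR at 0 and a summed level of at most 6.7. Of the markers of other cells, 4 of 7 for leukocytes, 2 of 6 for fibroblasts and 1 of 5 for endothelium passed the filter. The most abundant were CD68 (leukocytes), COL1A1 (fibroblasts) and VWF (endothelium). PTPRC (leukocytes), COL3A1 and DCN (fibroblasts) and KDR and TEK (endothelium) were at 0 in all libraries. The summed levels of these lists moved with the groups. The colon list summed to between 66178 and 70714 in untreated control cells and between 42726 and 43889 in treated mutp53-depleted cells, with 56295 to 56382 and 52452 to 52480 in treated control and untreated mutp53-depleted cells. The leukocyte list summed to 48.5 to 57.3 and 66.9 to 84.1 in untreated and treated control cells, and to 71 to 74 and 112 to 114 in untreated and treated mutp53-depleted cells. In the same order, the fibroblast list summed to 38.5 to 39.4, 28.5 to 31.9, 158 to 177 and 56.2 to 59.2, and the endothelial list to 6.06 to 7.26, 5.69 to 6.77, 21.9 to 28.8 and 17.6 to 28.4. Their part in the results below was not tested.

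TNF-α moved complement components and regulators in both directions. In control cells 2 of the 7 genes tested were called higher, C3 and CFB, where 2.97% of all genes tested were, and 2 were called lower, CD46 and C1S, where 4.27% were. By the adjusted p alone, 4 were higher (C3, CFB, CD55 and CD59) against 11.1% of all genes, and 2 were lower against 15.2%. In mutp53-depleted cells 1 gene was called higher (C3, against 1.86% of all genes) and 0 lower (4.5%). At an unadjusted p under 0.05 and 2-fold, 1 gene was lower there by limma (C1R) and 1 by each edgeR test (C1S), and 0 by DESeq2, and no tool called one after adjustment. The adjusted p alone was passed there by 2 higher genes, C3 and CD59 (9.8%), and by 1 lower gene, CD46 (16.9%). CFB passed the filter only through its values in TNF-α-treated control cells. Its presence among the genes tested is therefore not independent of any difference that uses that group. These are its rise in control cells, its depletion difference at 16 h and its interaction. The 9 genes were chosen with earlier results of these data known. The counts of members here and below therefore support nothing about complement genes as a set. The plot of values by library shows all 9 genes.

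**Figure D1:**
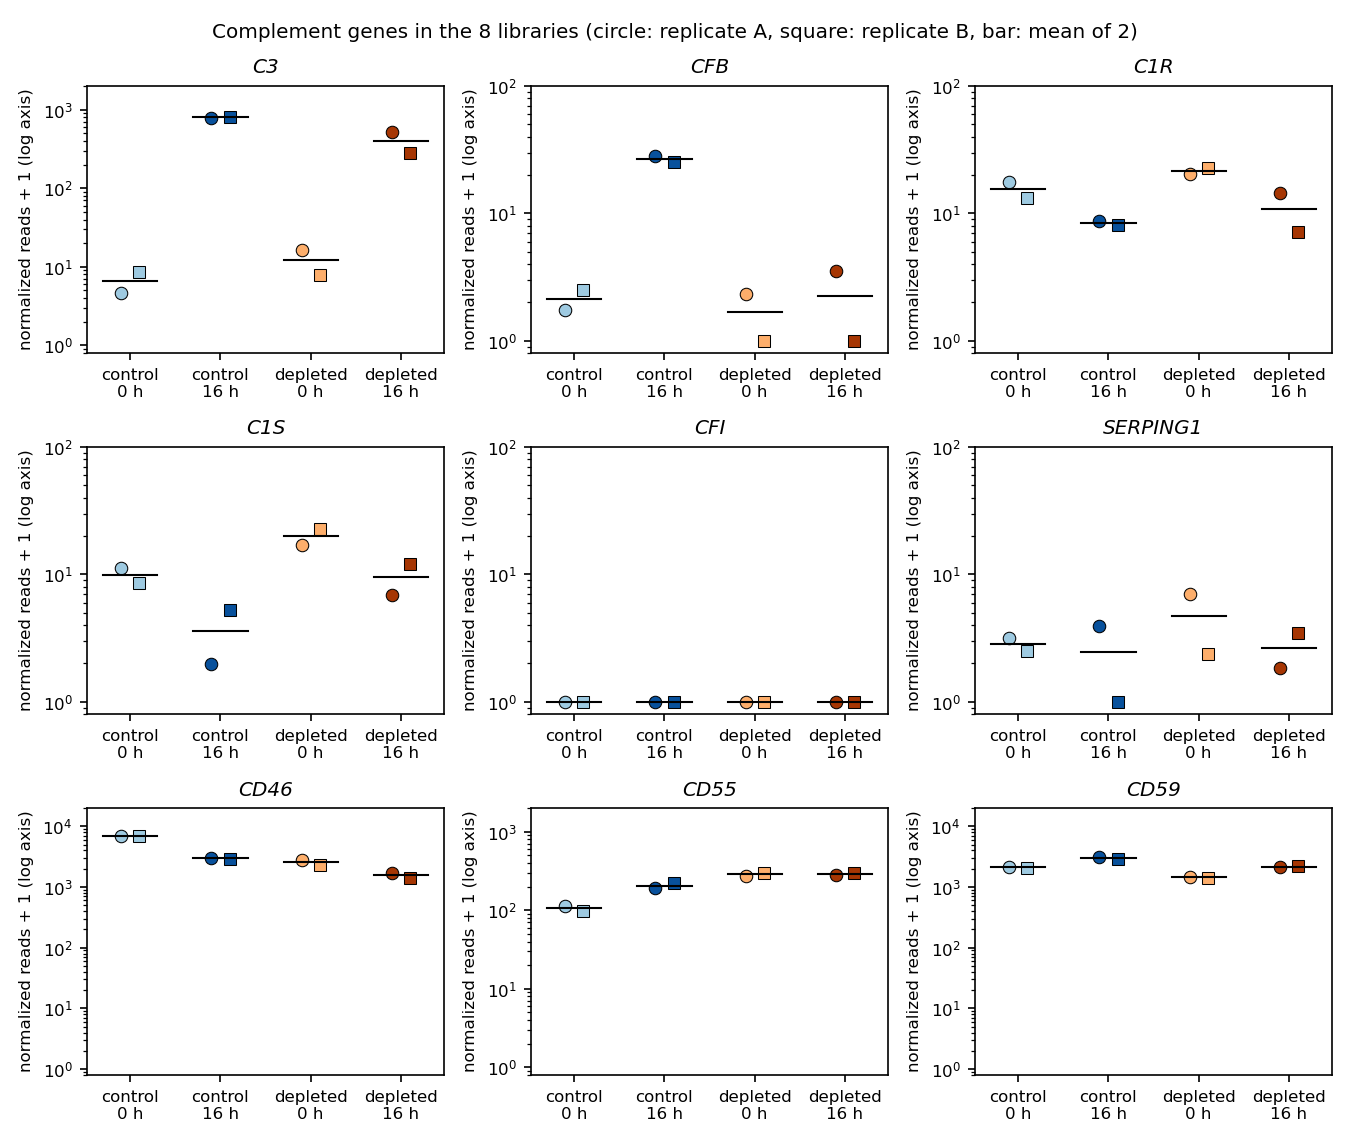
Normalized reads + 1 (log axis, with its own range in each panel) of the 9 complement genes in control (shLacZ) and mutp53-depleted (shp53) SW480 cells before and after 16 h of TNF-α; circles are replicate A, squares replicate B and bars the mean of the 2 libraries. C3 is high in the 4 TNF-α-treated libraries, CFB in the 2 TNF-α-treated control libraries only, and CD46 is highest in untreated control cells.

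C3, the central component (NM_000064, hg19 chr19:6677846-6720693, minus strand, 5089 bases of exon), moved most. It had 3.63 (A) and 7.57 (B) normalized reads in untreated control cells and 793 and 808 at 16 h. In mutp53-depleted cells it had 15.4 and 6.86 at 0 h and 519 and 283 at 16 h. All 4 treated libraries were above all 4 untreated ones, both treated control libraries were above both treated mutp53-depleted ones, and the untreated lines overlapped. The untreated values rested on 5 to 23 reads per library and the treated ones on 229 to 820. TNF-α raised C3 by 6.99 in control cells (SE 0.34, limma adjusted p = 2.2e-11) and by 5.08 in mutp53-depleted cells (SE 0.34, limma adjusted p = 2.5e-09). As a ratio of summed reads, which has no added constant, the rise was 163-fold in control cells (95% exact interval 88.3 to 340, covering counting error only) and 33.6-fold in mutp53-depleted cells (23.1 to 50.9). With mutp53 depleted, C3 was higher by 0.85 at 0 h (SE 0.34, limma adjusted p = 0.041), under 2-fold, and lower at 16 h (log2 fold change -1.06, SE 0.34, limma adjusted p = 0.013). The 0 h difference rested on single libraries. It was 0.32 (adjusted p = 0.49) without replicate A and 1.38 (0.0031) without replicate B of untreated mutp53-depleted cells, and 0.41 (0.39) without replicate A and 1.29 (0.011) without replicate B of untreated control cells. It did not pass with DESeq2 (adjusted p = 0.17), edgeR's exact test (0.087) or edgeR's quasi-likelihood test (0.15). The tested genes around C3 had a median depletion difference of -0.20 at 0 h and -0.29 at 16 h. With that median removed, the C3 difference at 0 h was 1.05 (limma adjusted p = 0.016), which was called. At 16 h it was then -0.77 (limma adjusted p = 0.068), and the call was lost. Replicates of the treated mutp53-depleted group differed most among the treated libraries. Without its replicate B the 16 h difference was -0.62 (adjusted p = 0.21), and without replicate A or B of treated control cells it kept its size but not its call (adjusted p = 0.076 and 0.075). On the recovered reads it was -0.99 with edgeR's exact test (adjusted p = 2.6e-08) and -0.97 with edgeR's quasi-likelihood test (adjusted p = 9.3e-06), just under 2-fold, and with DESeq2 its adjusted p was 0.069, within a range of 2.6e-08 to 0.21 over 18 other settings.

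CFB encodes factor B, the protease that amplifies the alternative pathway (NM_001710, hg19 chr6:31913721-31919861, plus strand). The table lists it in 7 copies, those of the alternative sequences of the MHC region, so its reads may have been shared between near-identical copies and its level is uncertain. It had 0.73 and 1.51 normalized reads in untreated control cells (1 read in each library) and 27.1 and 24.2 at 16 h (28 and 17 reads). In mutp53-depleted cells it had 1.34 and 0 at 0 h (2 and 0 reads) and 2.52 and 0 at 16 h (3 and 0 reads). Both treated control libraries lay above the other 6 libraries, in each of which CFB had 3 reads or fewer. TNF-α raised CFB in control cells by 3.67 (SE 0.76, limma adjusted p = 0.0013), and 45 against 2 summed reads gave a ratio of 26.4 (95% exact interval 6.89 to 225). In mutp53-depleted cells 3 against 2 summed reads gave 1.66 (0.191 to 19.9), and the log2 fold change was 0.29 (95% interval -1.30 to 1.89, limma adjusted p = 0.82). At 16 h CFB was lower in mutp53-depleted cells (log2 fold change -3.83, SE 0.76, limma adjusted p = 0.00036), and control cells had 17.3 times the reads (95% exact interval 5.55 to 87.0). This difference also uses the group through which CFB passed the filter. Before TNF-α the lines differed by -0.45 (95% interval -2.04 to 1.15), at a level where no difference was detectable. With a pseudocount of 0.1 in place of 1 the rise in control cells was 4.47 with an adjusted p of 0.075, the only one of 16 other settings that lost the call (adjusted p from 9.4e-10 to 0.075).

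The promoter of CFB is shown because CFB was the member whose rise with TNF-α was called in control cells and not in mutp53-depleted cells. RefSeq promoter sequences (GRCh38.p14) were matched by symbol for 6 of the 9 genes, with 11 start sites, and not for C3, C1S and SERPING1. The 250 bases before each start were searched on both strands for GGG and CC separated by any 5 bases (a wide NF-κB pattern), for the narrower NF-κB consensus, whose matches are a subset of the wide ones, for GAAA and GAAA separated by any 2 bases (IRF), and for TTCNNNGAA (STAT) and TGANTCA (AP-1). These were found in 54.4%, 5.21%, 3.02%, 6.57% and 6.57% of the 35116 RefSeq promoter windows of the same length. Below are the 250 bases before the start of CFB on the plus strand, chr6:31945845-31946094, with every match in capitals.
CFB: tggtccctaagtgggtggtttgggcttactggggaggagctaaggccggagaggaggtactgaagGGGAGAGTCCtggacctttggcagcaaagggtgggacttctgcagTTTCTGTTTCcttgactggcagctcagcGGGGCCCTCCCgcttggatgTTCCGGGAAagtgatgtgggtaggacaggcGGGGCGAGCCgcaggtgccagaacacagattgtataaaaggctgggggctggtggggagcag
From the 5′ end, the capitals mark a wide NF-κB match 185 to 176 bases before the start, an IRF match 140 to 131 bases before it on the minus strand, overlapping wide NF-κB matches at 112 to 103 and 111 to 102, a STAT match at 92 to 84 and a wide NF-κB match at 62 to 53. A match to the IRF pattern occurred in no other of the 11 windows, and none of the 11 held the narrower NF-κB consensus. Matches are letters in a window and say nothing about binding.

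C1R and C1S encode the C1r and C1s proteases of the classical pathway. They lie 9179 bases apart on chromosome 12, C1R on the minus strand (NM_001733, hg19 chr12:7187515-7245043) and C1S on the plus strand (NM_201442, hg19 chr12:7167980-7178335). C1R had 16.7 and 12.1 normalized reads in untreated control cells, 7.73 and 7.11 at 16 h, and 19.4 and 21.9 in untreated and 13.4 and 6.17 in treated mutp53-depleted cells. Its treated and untreated control libraries did not overlap, its treated mutp53-depleted libraries spanned the treated control ones, and each library held between 5 and 29 reads. C1R passed the test in no comparison. The TNF-α differences were -0.86 in control cells (95% interval -1.77 to 0.06, limma adjusted p = 0.17) and -1.09 in mutp53-depleted cells (-2.01 to -0.18, limma adjusted p = 0.073).
C1S had 10.2 and 7.57 normalized reads in untreated control cells, 0.97 and 4.27 at 16 h, and 16.1 and 21.9 in untreated and 5.87 and 11.1 in treated mutp53-depleted cells. The treated control libraries were the lowest, with 1 and 3 reads, and the untreated mutp53-depleted ones the highest, with 24 and 16. TNF-α lowered C1S in control cells by limma (log2 fold change -1.60, SE 0.55, adjusted p = 0.037), and the ratio of 4 to 19 summed reads was 0.247 (95% exact interval 0.0611 to 0.743). That call was lost in 11 of 16 other settings, including DESeq2 (adjusted p = 0.21), both edgeR tests (0.095 and 0.061) and the fit without replicate A of treated control cells (-0.89, adjusted p = 0.29), over which the adjusted p ran from 0.011 to 0.29. With TNF-α, C1S was 1.50 higher in mutp53-depleted than in control cells (SE 0.55, limma adjusted p = 0.028), from 16 against 4 summed reads. It did not pass with DESeq2 (adjusted p = 0.15), edgeR's exact test (0.085) or edgeR's quasi-likelihood test (0.064). The median of the 50 tested genes around C1S was 0.84 higher in the same comparison, and 0.74 higher at 0 h. With that median removed, the C1S difference was 0.66 (adjusted p = 0.38), and without replicate A of treated control cells it was 0.79 (adjusted p = 0.27) and without replicate B of treated mutp53-depleted cells 1.09 (adjusted p = 0.20). Over 17 other settings the adjusted p ran from 0.0062 to 0.38.

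The soluble inhibitors were scarcely measured. SERPING1, which encodes C1 inhibitor (NM_000062, hg19 chr11:57365027-57382326, plus strand), had 3 and 1 reads in control cells at 0 h, 3 and 0 at 16 h, and 9 and 1 in untreated and 1 and 2 in treated mutp53-depleted cells. Its mean of 2.16 normalized reads was below the filter, and all groups overlapped. CFI, which encodes factor I, the protease that inactivates C3b (NM_000204, hg19 chr4:110661848-110723335, minus strand), had 0 reads in all 8 libraries, which allows a level of up to 2.01 to 4.54 normalized reads depending on the library. No difference in either gene was detectable at this depth.

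The membrane regulators were the most abundant members. Per kb of exon, the levels in untreated control cells were 2063 ± 6.16 normalized reads for CD46, 278 ± 7.70 for CD59 and 36.1 ± 3.79 for CD55 (mean ± SD, n = 2), followed by 6.39 ± 1.43 for C1R, 3.17 ± 0.655 for C1S, 1.10 ± 0.547 for C3, 0.943 ± 0.242 for SERPING1 and 0.444 ± 0.218 for CFB. The libraries of neighbouring genes in that order did not overlap, except those of C3 and SERPING1. With TNF-α the order in control cells became CD46 (875 ± 34.9), CD59 (395 ± 27.2), C3 (157 ± 2.13), CD55 (70.7 ± 6.16), CFB (10.2 ± 0.807), C1R (3.29 ± 0.194), C1S (0.937 ± 0.835) and SERPING1 (0.741 ± 1.05). C1S and SERPING1 overlapped, and C3 stood above CD55. In treated mutp53-depleted cells C3 (78.8 ± 32.8) and CD55 (99.4 ± 4.95) overlapped.

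CD46, membrane cofactor protein, is the cofactor with which factor I degrades C3b and C4b on the cell (NM_002389, hg19 chr1:207925383-207968861, plus strand). It had 6982 and 6952 normalized reads in untreated control cells and 3037 and 2871 after TNF-α, and 2816 and 2330 in untreated mutp53-depleted cells and 1728 and 1428 after TNF-α. The untreated control libraries stood above all others, the treated mutp53-depleted ones below all others, and no group overlapped another. TNF-α lowered CD46 in control cells (log2 fold change -1.24, SE 0.09, limma adjusted p = 7.7e-09) and, under 2-fold, in mutp53-depleted cells (-0.71, SE 0.09, limma adjusted p = 1.3e-05). Depletion of mutp53 lowered it at 0 h (-1.44, SE 0.09, limma adjusted p = 4.5e-10) and, under 2-fold, at 16 h (-0.91, SE 0.09, limma adjusted p = 1.6e-07). The 50 tested genes around CD46 had medians of 0.18 and 0.17 in the depletion comparisons, the other way.

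CD55, decay-accelerating factor, takes apart the convertases that cleave C3 (NM_001114752, hg19 chr1:207494817-207534311, plus strand). It had 112 and 97.0 normalized reads in untreated control cells and 192 and 218 after TNF-α, and 272 and 298 in untreated mutp53-depleted cells and 278 and 299 after TNF-α. Control libraries rose with TNF-α without overlap, whereas the mutp53-depleted libraries overlapped between times and were all above the control ones. TNF-α raised CD55 in control cells by 0.96 (SE 0.13, limma adjusted p = 1.4e-05), just under 2-fold, and the difference in mutp53-depleted cells was 0.02 (95% interval -0.25 to 0.29, limma adjusted p = 0.93). Depletion raised CD55 by 1.44 at 0 h (SE 0.13, limma adjusted p = 3.8e-08) and by 0.49 at 16 h (SE 0.13, limma adjusted p = 0.0036). CD55 and CD46 lie 391 kb apart on the same strand of chromosome 1 and moved in opposite directions with depletion.

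CD59, protectin, blocks the assembly of the membrane attack complex (NM_001127227, hg19 chr11:33724556-33744498, minus strand). It had 2137 and 2054 normalized reads in untreated control cells and 3131 and 2841 after TNF-α, and 1482 and 1386 in untreated mutp53-depleted cells and 2125 and 2204 after TNF-α. The treated control libraries were the highest and the untreated mutp53-depleted ones the lowest, and treated mutp53-depleted cells overlapped only untreated control cells. TNF-α raised CD59 by 0.51 in control cells (SE 0.07, limma adjusted p = 2.6e-05) and by 0.59 in mutp53-depleted cells (SE 0.07, limma adjusted p = 5.3e-06). With mutp53 depleted it was lower at 0 h (-0.55, SE 0.07, limma adjusted p = 4e-06) and at 16 h (-0.46, SE 0.07, limma adjusted p = 2.8e-05), all changes being under 2-fold.

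The sequences before the starts of CD46 and CD55 are shown because the transcripts of these regulators moved in opposite directions with TNF-α in control cells and with depletion in both conditions. Both windows are on the plus strand of GRCh38.p14, chr1:207751788-207752037 for CD46 (the first of its 2 RefSeq starts, whose windows overlap) and chr1:207321428-207321677 for CD55.
CD46: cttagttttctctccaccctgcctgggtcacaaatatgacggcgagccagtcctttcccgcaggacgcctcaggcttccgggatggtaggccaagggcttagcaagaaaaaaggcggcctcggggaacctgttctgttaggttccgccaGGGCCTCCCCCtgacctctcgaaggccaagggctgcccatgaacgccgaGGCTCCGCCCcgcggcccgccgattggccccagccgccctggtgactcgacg
CD55: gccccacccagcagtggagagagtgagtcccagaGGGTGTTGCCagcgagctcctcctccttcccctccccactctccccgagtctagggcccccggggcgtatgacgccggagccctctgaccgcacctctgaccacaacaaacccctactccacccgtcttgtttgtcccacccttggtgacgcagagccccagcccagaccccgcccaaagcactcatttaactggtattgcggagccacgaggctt
Capitals mark the wide NF-κB pattern, which occurred 3 times before CD46 (101 to 92 bases before the start on the plus strand, 100 to 91 on the minus strand and 52 to 43 on the minus strand) and 1 time before CD55 (216 to 207 on the plus strand). This pattern was in 54.4% of all windows, and neither window held the other patterns.

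The make-up of the membrane regulator transcripts differed between the groups. Summed per kb, CD46, CD55 and CD59 came to 2389 and 2364 normalized reads in untreated control cells and 1380 and 1301 after TNF-α, and to 1124 and 976 in untreated mutp53-depleted cells and 889 and 818 after TNF-α. The groups did not overlap in this sum. CD46 made up 86.5% and 87.1% of it in untreated control cells and 65.2% and 65.3% after TNF-α, and 74.2% and 70.7% in untreated mutp53-depleted cells and 57.6% and 51.7% after TNF-α. The share of CD59 went from 11.8% and 11.5% to 30.0% and 28.9% with TNF-α in control cells, and from 17.5% and 18.8% to 31.7% and 35.7% in mutp53-depleted cells. CD55 made up 1.6% and 1.4% in untreated control cells and between 4.8% and 12.6% in the other libraries. These sums and shares are descriptions and were not tested.

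**Figure D2:**
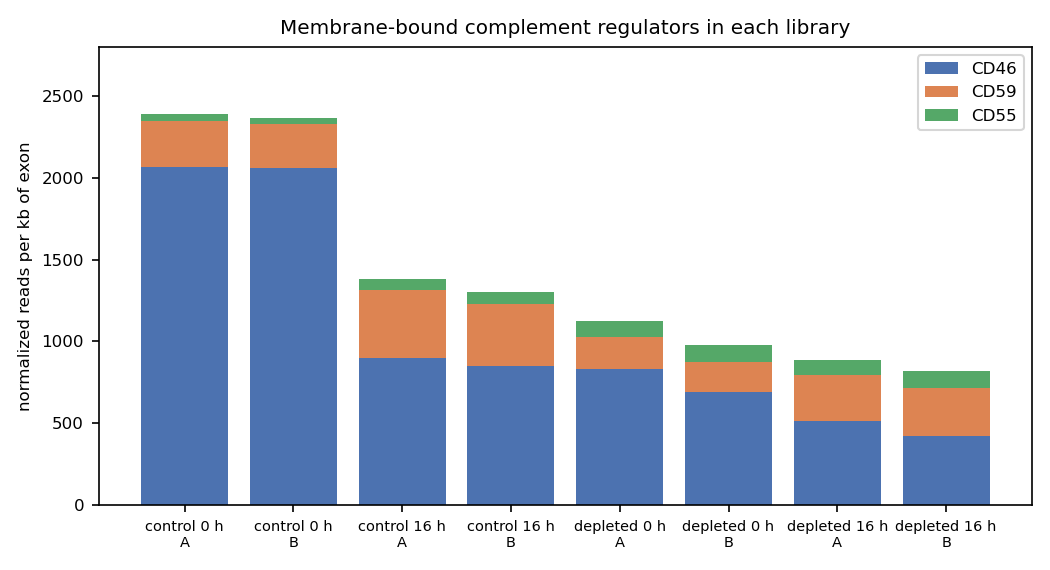
Normalized reads per kb of exon of CD46, CD59 and CD55, stacked, in each of the 8 libraries (A and B are the replicates of a group). The total runs from 2389 in untreated control cells to 818 in TNF-α-treated mutp53-depleted cells, and CD46 gives most of the difference.

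Depletion of mutp53 was compared with control at each time, with the same control libraries as above, so the comparisons are not independent of the TNF-α ones. At 0 h, 1 of 7 genes was called higher (CD55, against 5.89% of all genes tested) and 1 lower (CD46, 9.55%), and by the adjusted p alone 2 were higher (C3 and CD55, 27.3%) and 2 lower (CD46 and CD59, 25.2%). At 16 h, 1 was called higher (C1S, 5.03%) and 2 lower (C3 and CFB, 10.2%), and by the adjusted p alone 2 were higher (C1S and CD55, 24.9%) and 4 lower (C3, CFB, CD46 and CD59, 26.5%). CFB was tested here only because of its values in the treated control libraries. The median over the 7 genes was 0.51 at 0 h and -0.46 at 16 h, and over all genes tested 0.03 and -0.01. The plot of fold changes sets the comparisons side by side.

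**Figure D3:**
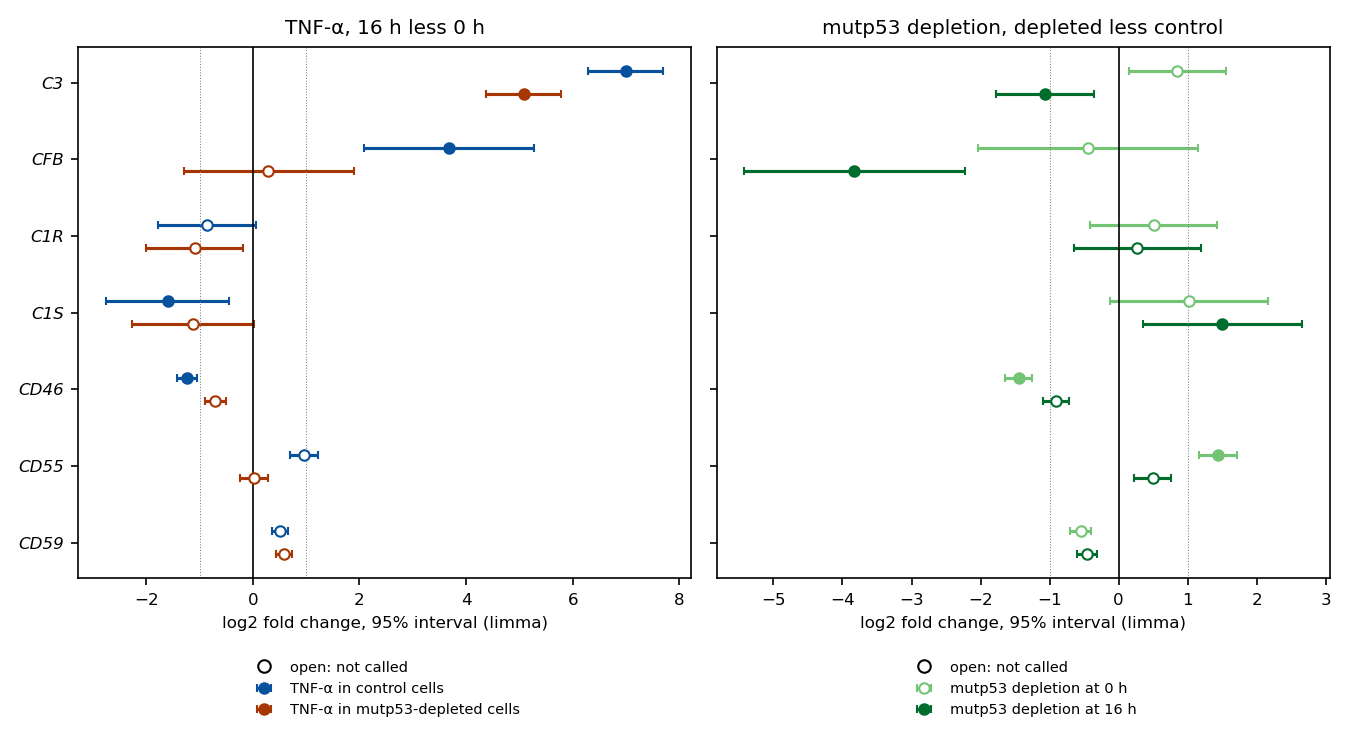
Log2 fold changes of the 7 complement genes tested, with 95% intervals from limma, for TNF-α (16 h less 0 h, left) and for mutp53 depletion (depleted less control, right), with filled points for differences called at an adjusted p under 0.05 and at least 2-fold, dotted lines at 2-fold, and a different scale on each panel. C3 lies farthest to the right under TNF-α in both lines (6.99 and 5.08), and the intervals of CFB are wider than those of CD46, CD55 and CD59.

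Whether the TNF-α response itself differed between the lines was tested as an interaction, the response in mutp53-depleted cells less that in control cells. It passed for 1 higher gene, CD46 (against 0.655% of all genes tested), and for 2 lower genes, C3 and CD55 (2.21%). For CD46 the interaction was 0.53 (SE 0.13, limma adjusted p = 0.030), a smaller fall in mutp53-depleted cells. For CD55 it was -0.94 (SE 0.18, limma adjusted p = 0.0057), and its adjusted p ran from 0.0032 to 0.051 over 16 other settings, the highest being without replicate B of untreated mutp53-depleted cells. For C3 it was -1.91 (SE 0.47, limma adjusted p = 0.034) and ran from -2.44 to -1.38 over 16 other settings, 9 of which did not pass. Libraries whose removal ended the C3 call were replicate A of untreated control cells (-1.47), A (-1.93) and B (-1.90) of treated control cells, A of untreated mutp53-depleted cells (-1.38) and B of treated mutp53-depleted cells (-1.47). The C3 interaction also did not pass with DESeq2 (adjusted p = 0.22) or edgeR's quasi-likelihood test (0.12). By limma it did not pass with no filter (adjusted p = 0.11) or a pseudocount of 0.1 (0.082). The CD46 call was lost without any one of 6 libraries, at values of 0.40 to 0.57. CFB had the largest interaction estimate, -3.38 (95% interval -5.64 to -1.12), which did not pass over all genes (limma adjusted p = 0.12). It uses the treated control libraries, through which alone CFB passed the filter. The interaction of CD59 was 0.08 (95% interval -0.13 to 0.30, limma adjusted p = 0.79), that of C1R -0.23 (-1.53 to 1.06) and that of C1S 0.48 (-1.14 to 2.11).

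For each gene tested, the 3 genes with the most similar pattern were found by Pearson's r of log2 values over the 8 libraries, which fall into 4 groups, so that high values are common. C3 was most like ICAM1 (r = 0.9940), an adhesion molecule, then IL32 and ITGA2. CFB was most like ITGAV (0.9853), LOC284454 and RRAS. CD46 was most like the acid-sensing channel gene ASIC1 (0.9980), and the protease gene CTSZ was also among its 3. CD55 was most like SNAPC3 (0.9900), ABTB2 and RAPGEF1, and CD59 was most like the zinc transporter gene SLC39A13 (0.9973), CD82 and ALS2CL. C1R was most like TUBG2 (0.9839), ZNF248 and FLVCR1-AS1, and C1S was most like CDNF (0.9862), RNF20 and C9orf64, both from few reads.

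Beyond these genes, a list of 52 other complement components, regulators and receptors was read from the same table. Of these, 26 had a read in any library and 18 passed the filter. Those without a read included the C1q chains C1QA, C1QB and C1QC, the lectin pathway genes MASP1, MBL2, FCN1, FCN2 and FCN3, the terminal components C6, C7, C8A and C8B, the regulators C4BPA, CPN1, CPN2 and CSMD1, and the receptors CR1, C5AR2, VSIG4 and CD93. TNF-α in control cells gave 2 calls higher (CSMD2 and ITGAM) and 4 lower (C5AR1, CLU, COLEC11 and SUSD4) of the 18, against 2.97% and 4.27% of all genes tested. In mutp53-depleted cells it gave 2 higher (CSMD2 and ITGAM) and 2 lower (C5 and SUSD4), against 1.86% and 4.5%. Depletion gave 2 higher (C4BPB and CSMD3) and 3 lower (C2, C5 and SUSD4) at 0 h, against 5.89% and 9.55%, and 3 higher (C4BPB, C5AR1 and COLEC11) and 3 lower (C2, C5 and SUSD4) at 16 h, against 5.03% and 10.2%. CSMD2, ITGAM, C4BPB and C2 passed the filter only through groups where they were high and so had to differ, and these counts support nothing about the list. The interaction passed for 0 of the 18 by limma, edgeR's quasi-likelihood test or DESeq2, and at an unadjusted p under 0.05 for 2, 5 and 1 of them. The median of the 18 was -0.10 for TNF-α in control cells, 0.13 in mutp53-depleted cells, 0.01 for depletion at 0 h and 0.26 at 16 h, beside -0.05, -0.06, 0.03 and -0.01 over all genes tested.

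C2, the protease that fills in the classical pathway the place of factor B, ends 269 bases before CFB on the same strand and is also listed in 7 copies. It had 17.4 and 18.2 normalized reads in untreated control cells and 34.8 and 39.8 after TNF-α, and 2.68 and 0 in untreated mutp53-depleted cells and 1.68 and 1.23 after TNF-α. All 4 mutp53-depleted libraries were below all control ones, with 4 reads or fewer each. Depletion lowered C2 at 0 h (log2 fold change -3.29) and at 16 h (-3.97), and control cells had 9.81 times the reads at 0 h (95% exact interval 3.52 to 37.9) and 24.6 times at 16 h (8.05 to 122). C2 passed the filter only through the control groups, where it was high, so its presence among the genes tested is not independent of these differences. The 50 tested genes around C2 had medians of -0.07 at 0 h and -0.14 at 16 h, and those around CFB -0.07 and -0.18.

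C5, from which the terminal pathway starts, had 48.6 and 53 normalized reads in untreated control cells and 35.8 and 25.6 after TNF-α, and 10.7 and 16.4 in untreated mutp53-depleted cells and 6.71 and 3.70 after TNF-α. It was lower in mutp53-depleted cells at both times (-1.86 and -2.38) without overlap. The C5 call with TNF-α in mutp53-depleted cells (-1.25) rested on 8 and 3 reads in the treated libraries. That call was lost in 7 of 17 other settings. SUSD4, a regulator with complement control domains, fell in all 4 comparisons. On the log2 scale it fell by 1.24 and 1.87 with TNF-α in control and mutp53-depleted cells. With depletion it fell by 1.02 at 0 h and 1.65 at 16 h. Its depletion call at 0 h was lost in 3 of 18 other settings. ITGAM, the α chain of complement receptor 3, had 0 reads in untreated control cells and 22.2 and 11.4 normalized reads after TNF-α (23 and 8 reads), which was at least 5-fold higher against 3 reads per library. In mutp53-depleted cells it had 2.01 and 0 before and 27.7 and 25.9 after TNF-α. ITGAM is also on the leukocyte marker list, of which 4 of 7 passed the filter, with CD68 the most abundant and PTPRC at 0. The sum of that list, which includes ITGAM, was also higher after TNF-α in both lines. The source of the ITGAM reads was not tested.

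Among the abundant genes of that list, CLU, which encodes the terminal pathway inhibitor clusterin, had 3030 and 2797 normalized reads in untreated control cells and 1503 and 1246 after TNF-α. It was called lower with TNF-α in control cells (-1.09) and fell, under 2-fold, in mutp53-depleted cells (-0.73), where it had 2567 and 2490 before and 1541 and 1506 after. C1QBP, which encodes a C1q-binding protein of mitochondria, had 3268 to 3995 normalized reads in all libraries and passed the test in no comparison. C1RL, a C1r-like protease gene next to C1R, had 260 to 487, and fell with TNF-α in both lines, under 2-fold (-0.42 and -0.67). CSMD2, a large membrane protein with complement control domains, rose with TNF-α by 2.66 in control and 2.37 in mutp53-depleted cells from 1 to 3 reads per untreated library.
The remaining calls also rested on few reads or were lost in other settings. C4BPB (a chain of C4b-binding protein) had 0 reads in untreated control cells and 3 and 5 in untreated mutp53-depleted ones, and 1 and 1 against 9 and 8 at 16 h. C5AR1 (the C5a receptor) had 9 and 1 reads in untreated and 0 and 0 in treated control cells, and 3 to 5 reads in each mutp53-depleted library. CSMD3 had 1 to 4 reads in each control library and 7 to 12 in each mutp53-depleted one. COLEC11, a lectin pathway recognition protein, was lower with TNF-α in control cells (-1.03), a call lost in 5 of 17 other settings, including DESeq2 and the fit without replicate A of treated control cells (-0.60). At 16 h it was 1.07 higher with depletion and 0.64 without that library.

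**Figure D4:**
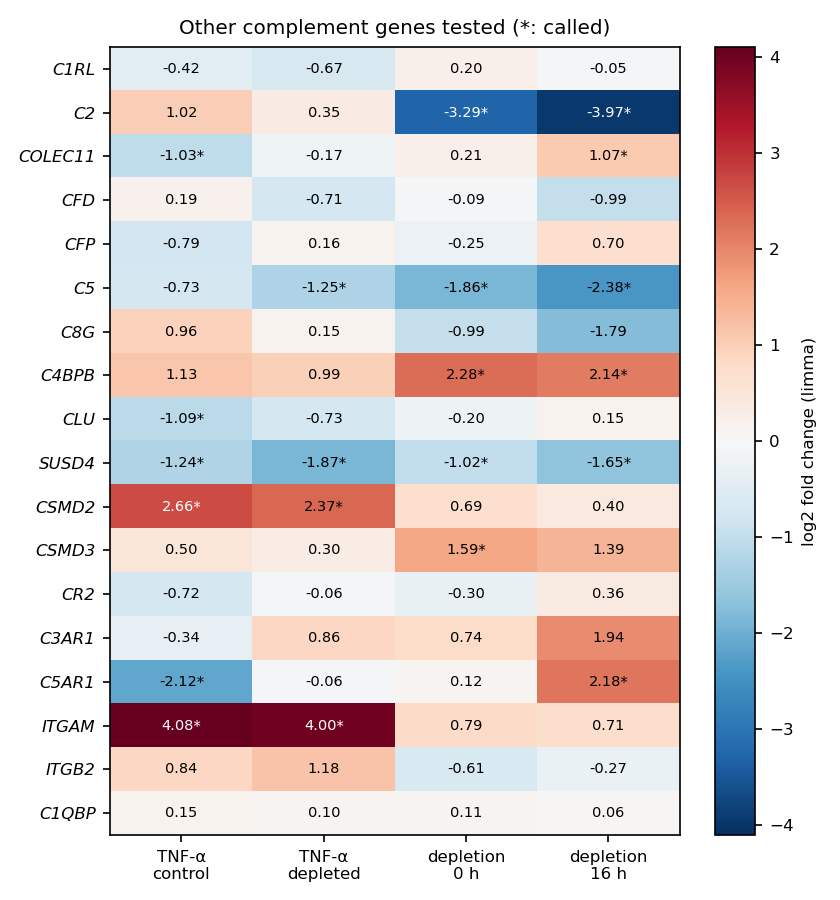
Log2 fold changes (colour and number) of the 18 other complement genes tested, in columns for TNF-α in control and mutp53-depleted cells and for mutp53 depletion at 0 h and 16 h, with a star for an adjusted p under 0.05 (limma) and at least 2-fold. C2 and C5 are lower with depletion at both times, and ITGAM and CSMD2 are higher with TNF-α in both lines; values of genes at a few reads depend on the added 1.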

How the data were processed

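The mRNA-seq libraries of 4 groups, with 2 biological replicates each, were used. The ChIP-seq and GRO-seq samples were not used here. Per the paper's methods, the authors prepared strand-specific dUTP libraries from oligo(dT)-selected RNA and mapped the reads with STAR. The file header gives HOMER as the counter of reads on RefSeq exons. The signal values the authors deposited are reads scaled to 1 total per library, and these are the normalized reads of the text. The header and coordinates of the table give hg19, whereas the paper's methods and the submitters' processing notes name hg38. Columns with the authors' own log2 fold changes and p-values were not used. All values of 1 to 100 reads were whole reads within 0.05 reads in every library, so reads were recovered for count tests. The reads on genes were 74.51% to 79.51% of the totals in the header. The list of members and the wider lists were chosen with earlier results of these data known.

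After log2(normalized reads + 1) transformation, groups were compared by limma 3.58.1 (eBayes with an intensity trend, R 4.3.3), in a model of 4 group means over 8 libraries, with Benjamini-Hochberg adjustment over the 14800 genes tested. All members were named, and of the wider list those called in any comparison or with a mean of at least 100. CSMD2's reads and the genes without reads were given after the values were seen. Some genes that these rules give are not reported here. Alternatives were median-ratio scaling, no filter or a filter at a mean of 10, a pseudocount of 0.1 or 5, the replicate letter as a block, edgeR 4.0.16, DESeq2 1.42.0, depletion differences less the median of their 50 neighbours, and each library left out. Leaving one out leaves a group with 1 library, which is then taken to vary like the other groups. Intervals of read ratios are exact (Clopper-Pearson) and cover counting error only. The procedure was tested on simulated data. Python 3.11.15, pandas 2.3.3, scipy 1.17.1 and matplotlib 3.10.9 were used.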

Additional observations from a re-analysis of the deposited data

Results flagged for a closer look

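The TNF-α response differed between mutp53-depleted and control cells, by the interaction in limma, for 3 of the 7 complement genes tested, 1 higher and 2 lower, where 0.655% and 2.21% of all genes tested passed. The difference, mutp53-depleted less control on the log2 scale, was -1.91 for C3, 0.53 for CD46 and -0.94 for CD55. C3 rose and CD46 fell in both lines, and CD55 rose in control cells while its difference in mutp53-depleted cells was 0.02. The interaction itself passed for CD55 in 15 of 16 other settings, for CD46 in 8 of 16 and for C3 in 7 of 16. For C3 it passed with neither DESeq2 nor edgeR's quasi-likelihood test. The members were chosen with earlier results of these data known, so the count of 3 supports nothing about complement genes as a set.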

How the results depend on the processing

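Over 56 results for single genes and 18 settings, 838 of 947 values kept their direction and their side of the threshold, 88 lost a call, 10 gained one and 11 changed sign. Of the members, C3 and CD46 kept their TNF-α calls in control cells, and CD55 and CD46 their depletion calls at 0 h, in every setting. The count called with TNF-α in control cells went from 4 to 2 with a mean of at least 10 (where CFB and C1S are not tested) and to 2 with a pseudocount of 0.1. With depletion at 16 h it went from 3 to 1 with a mean of at least 10, DESeq2, edgeR's exact test or edgeR's quasi-likelihood test. The interaction count went from 3 to 1 with no filter and to 1 with a pseudocount of 0.1. Leaving out 1 library gave 1 to 2 called with TNF-α in mutp53-depleted cells, 1 to 4 with depletion at 16 h and 1 to 2 for the interaction. Changes of sign occurred only in differences that were not called. C1R differed by -0.23 at 0 h and -0.57 at 16 h with the neighbours' median removed, and its interaction was 0.06 with edgeR's quasi-likelihood test. Leaving out 1 library gave -0.61 to 1.20 for CFB with TNF-α in mutp53-depleted cells and -1.06 to 0.17 with depletion at 0 h, -0.23 to 0.78 for C1R with depletion at 16 h and -0.74 to 0.27 for its interaction, -0.23 to 1.19 for the interaction of C1S and -0.05 to 0.08 for CD55 with TNF-α in mutp53-depleted cells. The cause of these changes was not tested. The labels do not say whether the replicate letters pair libraries across groups. Deviations of same-letter libraries from their group means had correlations of -0.019 to 0.074 over all genes tested. Such values over all genes cannot decide the question for single genes, and CD46 was higher in A than in B in every group. With the letter as a replicate block, the limma adjusted p of the CD46 depletion difference at 0 h went from 4.5e-10 to 5.6e-13. The counts called with the block stayed at 4, 1, 2, 3 and 3, with no call of a member changed. The interaction could not be fitted with edgeR's exact test. Depth limits CFB, C1R, C1S and SERPING1, whose values rest on at most 29 reads in a library.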
